A study of Mus musculus with 20 samples.

Results

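Livers of mice given benzo[a]pyrene (BaP) at 50 mg/kg/day, the middle of 3 doses, were compared with livers of vehicle controls on 10 of the 20 mRNA arrays of the study, 5 arrays per group. The members were chosen by the dose in the labels alone, so no measured value decided them. Exposed replicates carry the numbers 11 to 15 and control replicates the numbers 1 to 5, as in the sample labels.

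All animals were male Muta™Mouse of strain 40.6, a transgenic line that carries a bacterial lacZ reporter for counting mutations, and were 25 weeks old. They were dosed by oral gavage for 28 days with BaP in olive oil, or with 0 mg/kg of BaP, and were killed 3 days after the last dose. Liver RNA was labelled with Cy5 and hybridised with Cy3-labelled universal mouse reference RNA, a pool from mouse cell lines, on 2-colour Agilent arrays. A level is therefore a log2 ratio of liver over reference within an array, and a change is the difference of the group means of these ratios.

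BaP is a product of incomplete combustion. It binds the aryl hydrocarbon receptor (AhR), a transcription factor that turns on cytochrome P450 genes such as Cyp1a1, and these enzymes convert it to a diol epoxide that forms bulky DNA adducts. Such adducts are removed by nucleotide excision repair, and the damage engages p53, whose targets stop the cell cycle. The liver is made mostly of hepatocytes, which hold the xenobiotic and lipid enzymes, with sinusoidal endothelium, Kupffer cells (resident macrophages) and stellate cells between them.

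The labels of the arrays name both liver and lungs. The mean log2 ratio of 12 hepatocyte markers was 4.93 to 6.33 on the control arrays and 5.63 to 6.12 on the exposed arrays. Of 11 lung epithelial markers 6 were present, with a mean of -0.01 to 0.65 on the control arrays and 0.25 to 0.53 on the exposed arrays, so the arrays were read as liver. Between 51.9% and 67.5% of spots on the 10 arrays stood well above background. Each of slides 1, 2 and 3 held 1 array of each group and slide 6 held 2 of each, but controls lay at positions 1 and 2 and exposed arrays at positions 3 and 4, so position on the slide and dose cannot be told apart.

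No transcript passed the test at 50 mg/kg/day. With the limits set at an adjusted p of 0.05 and a 1.5-fold change, limma called 0 of 27346 present probes higher (0%) and 0 lower (0%), and the lowest adjusted p was 0.101. At an unadjusted p under 0.05 there were 1831 probes (6.7%). With slide as a fixed block, which leaves the fold changes of a fully measured probe as they are, limma called 3 probes higher (0.011%) and 0 lower (0%): Marco, Ushbp1 and H2-Ab1. Among 12997 genes, each read on its brightest present probe, 580 (4.46%) were higher and 397 (3.05%) lower at an unadjusted p under 0.05. All 5 exposed arrays lay above all 5 controls for 95 genes (0.731%) and below them for 33 (0.254%). These shares of all genes are to be read beside the counts of list members below. Of transcripts with a fold change over 1.5, 125 higher and 39 lower, the groups did not overlap for 29 (26 genes) and 2 (2 genes).

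**Figure D1:**
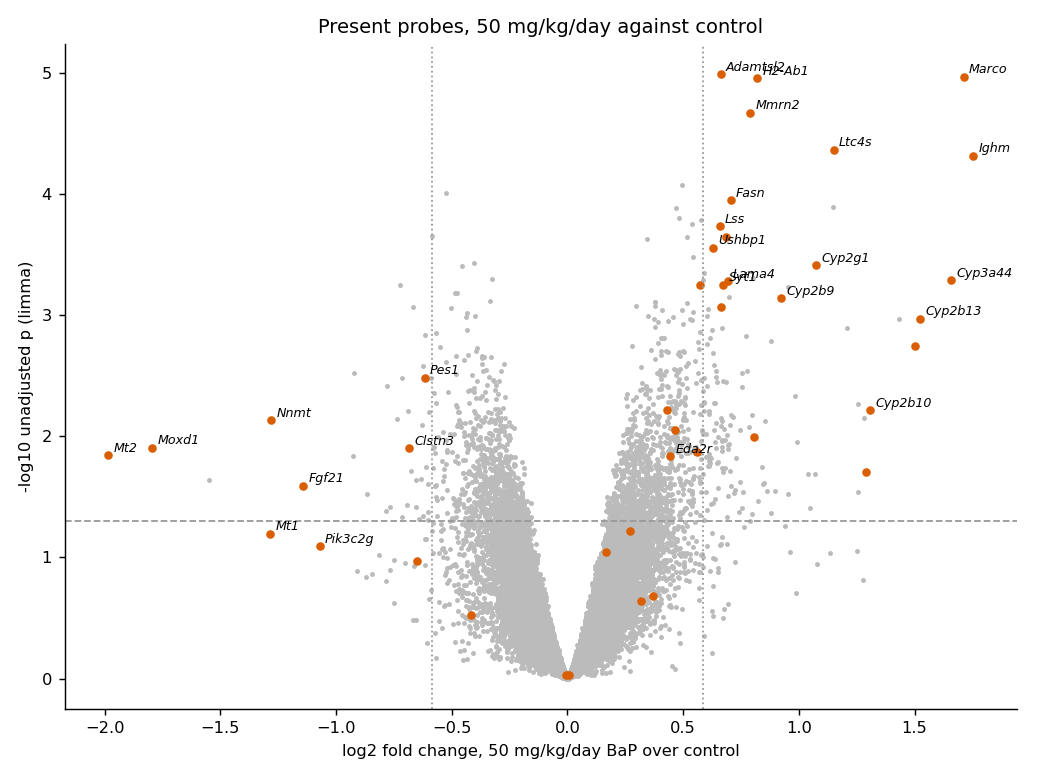
Each point is 1 of the 27346 present probes, with the log2 fold change of 50 mg/kg/day BaP over control on the x axis and -log10 of the unadjusted limma p on the y axis. Dotted lines mark 1.5-fold, the dashed line marks an unadjusted p of 0.05, and orange points are probes of the named genes, among them Marco at 1.71 in the upper right and Mt2 at -1.99 on the left.

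The 4 genes of smallest p were Adamtsl2, of the extracellular matrix, Marco, H2-Ab1, of antigen presentation, and Mmrn2, of the vessel wall. Marco, a scavenger receptor of macrophages, was measured at log2 ratios of 1.83, 2.21, 2.13, 2.81 and 3.04 in controls 1 to 5 and at 4.01, 4.22, 3.59, 4.45 and 4.33 in exposed 11 to 15. Every exposed array lay above every control, and the lowest exposed value exceeded the highest control. The group means were 2.41 ± 0.50 and 4.12 ± 0.34 (SD, n = 5 each), a log2 fold change of 1.71 (SE 0.30) or 3.28-fold, with an adjusted limma p of 0.101 that became 0.0168 with slide as a block. Within slides 1, 2, 3 and 6 the difference was 1.52, 1.40, 2.17 and 1.73.

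Of 15 present Kupffer cell markers, Marco included, 14 were above 0. At an unadjusted p under 0.05, 4 were higher, against 4.46% of all genes. The median was 0.18, beside 0.09 for genes of matching liver over reference ratio, and 10 of the 15 lay above the median of such genes. Msr1, another scavenger receptor, was 0.48 higher, while Timd4, a receptor for dying cells, lay lowest at -0.06. The median of the list was 0.07 without exposed 14 and 0.30 without exposed 11, and turned to -0.33 within slide 3.

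Ltc4s encodes leukotriene C4 synthase, which makes an inflammatory lipid. Its log2 ratio was 0.20, 0.06, -0.13, -0.07 and 0.11 in the controls and 1.57, 1.38, 0.44, 1.28 and 1.26 in the exposed livers. The groups did not overlap, and exposed 13 sat well below the other 4 exposed arrays. The log2 fold change was 1.15 (SE 0.22, adjusted limma p 0.221), and the probe was well above background on 3 of 5 control and 5 of 5 exposed arrays.

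**Figure D2:**
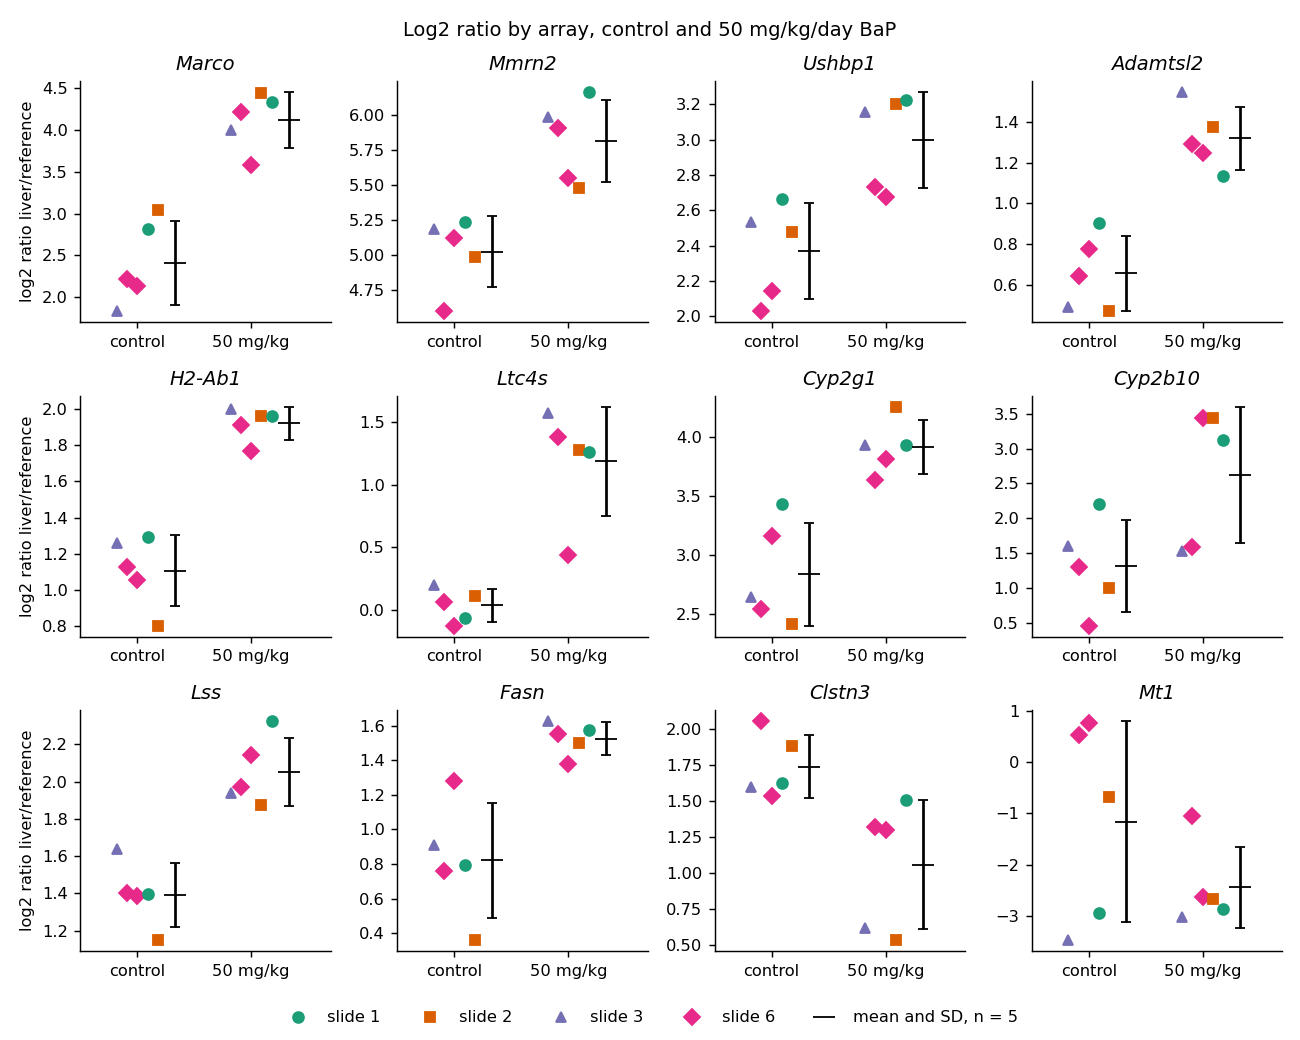
Log2 ratio of liver over reference on each of the 5 control and 5 exposed arrays for 12 named genes, with points coloured by slide and the mean and SD of each group (n = 5). Marco, Mmrn2 and Ltc4s show no overlap between the groups, while Cyp2b10 and Mt1 do.

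Endothelial markers were higher as a group. Of 19 present general endothelial markers, 18 were above 0 and 12 were higher at an unadjusted p under 0.05, against 4.46% of all genes. For 6 of them the groups did not overlap, against 0.731% of all genes. Genes with a high liver over reference ratio had larger shares. With a log2 ratio of 2 to 4, 12.8% were higher at an unadjusted p under 0.05 and 1.88% did not overlap. With a ratio over 4, to which 5 of the 19 belong, these shares were 13.7% and 0.97%. The median log2 fold change was 0.37, beside -0.00 for all genes and 0.09 for genes of matching liver over reference ratio. It was 0.42 at 25 and 0.66 at 75 mg/kg/day, against the same control arrays. At these doses 11 and 15 of the 19 were higher at an unadjusted p under 0.05, beside 526 and 994 of 12997 genes. The mean level of the list was 2.08 to 2.60 on control arrays and 2.64 to 2.96 on exposed arrays, which did not overlap. In whole tissue, more cells of a type and more RNA per cell cannot be told apart.

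Mmrn2, an extracellular matrix protein made by endothelium, was measured at 5.19, 4.60, 5.12, 5.23 and 4.99 in controls and at 5.98, 5.90, 5.55, 5.48 and 6.16 in exposed livers. All exposed arrays lay above all controls, and the log2 fold change was 0.79 (SE 0.14, adjusted limma p 0.146, and 0.0310 with slide as a random block). Ushbp1, a further endothelial transcript, was at 2.54, 2.03, 2.14, 2.67 and 2.48 in controls and at 3.16, 2.73, 2.68, 3.20 and 3.23 in exposed livers. The lowest exposed value was only just above the highest control, but the difference was alike on the slides, 0.56, 0.73, 0.62 and 0.62 on slides 1, 2, 3 and 6. Its log2 fold change was 0.63 (SE 0.14), with an adjusted limma p of 0.382 that became 0.0168 with slide as a block.

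The groups also did not overlap for Eng, a co-receptor for TGF-beta (0.58), Icam2, an adhesion molecule (0.52), Gpihbp1, which anchors lipoprotein lipase on capillaries (0.54), and Rasip1, needed for vessel lumen formation (0.27), all as log2 fold changes. Lama4, a laminin chain of vascular basement membrane outside the list, was 0.69 higher (SE 0.17, adjusted limma p 0.467). Syt1, the calcium sensor of vesicle release, was 0.67 higher (SE 0.17, adjusted limma p 0.467), and for both the groups did not overlap. Of 15 sinusoidal markers, 13 were above 0 and 3 were higher at an unadjusted p under 0.05, with a median of 0.27. Among these Lyve1, a hyaluronan receptor, had the largest value at 1.26, with overlapping groups.

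Stellate cell and fibroblast markers were mostly above 0. Of 21 present, 15 were above 0, with a median of 0.31. At an unadjusted p under 0.05, 9 were higher, against 4.46% of all genes. The groups did not overlap for 4, against 0.731% of all genes. The median was 0.11 without control 2, whose mean level of the list was -1.63 beside -1.13 to -0.86 on the other control arrays. Adamtsl2, a secreted protein of the extracellular matrix, was measured at 0.49, 0.64, 0.77, 0.90 and 0.47 in controls and at 1.55, 1.29, 1.25, 1.37 and 1.13 in exposed livers. The groups did not overlap, and the log2 fold change was 0.66 (SE 0.11, adjusted limma p 0.101, and 0.0261 with slide as a random block). The matrix genes Postn (periostin) and Col3a1 (a collagen chain) were 0.77 and 0.58 higher, and Rgs5, a pericyte marker, was 0.65 higher, each without overlap. Tagln, a smooth muscle protein, was lowest at -0.09.

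Genes of MHC class II presentation, which display peptides to helper T cells, include the beta chain H2-Ab1, read by 3 present probes. The probe with the largest change, which was not the brightest, was at 1.26, 1.12, 1.05, 1.29 and 0.80 in controls. It was at 2.00, 1.91, 1.77, 1.96 and 1.96 in exposed livers. The exposed arrays lay close together and above all controls. The log2 fold change was 0.82 (SE 0.14), with an adjusted limma p of 0.101 that became 0.0321 with slide as a block. The other H2-Ab1 probes gave 0.57 and 0.47, also without overlap. H2-Aa, the partner alpha chain, was 0.59 higher and Cd74, the invariant chain, 0.39 higher, both with overlap. With each gene read on its brightest probe, H2-Aa had the largest value of the list. Of 8 present genes 6 were above 0 and 3 were higher at an unadjusted p under 0.05, with a median of 0.24. The median was 0.21 at 25 and 0.23 at 75 mg/kg/day, against the same control arrays.

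Most immunoglobulin and lymphocyte transcripts lay near 0. The largest value was that of Ighm, the IgM heavy chain, which was read by 2 present probes. On the dimmer it was at 1.33, 0.44, 0.60, 0.73 and 0.53 in controls and at 3.39, 1.43, 3.02, 1.62 and 2.95 in exposed livers, where replicates 12 and 14 were nearest to the controls but still above all of them. The log2 fold change was 1.75 (SE 0.34, adjusted limma p 0.221, and 0.0489 with slide as a random block), and on the brighter probe 0.80 with overlap. Of 7 present B cell and immunoglobulin genes 2 were above 0, with Ms4a1 at -0.07 and Jchain at -0.08. Of 9 T and NK cell genes 2 were above 0, with a median of -0.06. Cd5, the lowest at -0.31, was the 1 gene of these that was lower at an unadjusted p under 0.05.

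Sterol synthesis genes, which build cholesterol from acetyl units under control of SREBP2, were higher at 50 mg/kg/day. Of 20 present, 17 were above 0, with a median of 0.32 beside -0.00 for genes of matching ratio. At an unadjusted p under 0.05, 10 were higher and 0 lower, against 4.46% and 3.05% of all genes. The groups did not overlap for 4, against 0.731% of all genes. The mean level of the list was 1.79 to 2.10 on control arrays and 2.16 to 2.43 on exposed arrays, which did not overlap. Within slide 3 the median difference was 0.01. Lss, lanosterol synthase, which closes the sterol ring, was at 1.64, 1.40, 1.39, 1.39 and 1.15 in controls and at 1.94, 1.97, 2.14, 1.88 and 2.32 in exposed livers. The groups did not overlap, the log2 fold change was 0.66 (SE 0.14, adjusted limma p 0.336), and the second probe gave 0.66 as well. Other genes of the pathway lay above 0 as well: Mvk, mevalonate kinase, was 0.51 higher, Mvd, which forms the first isoprene unit, 0.43, and Cyp51, which demethylates lanosterol, 0.44. Insig1, which holds SREBP in the endoplasmic reticulum, was 0.51 higher, and Mvk and Insig1 did not overlap.

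Promoters of these genes were read because most members of the sterol and MHC class II lists lay above 0, and 4 motifs were searched on both strands after the values were known. The sequences are from RefSeq on GRCm38.p6, and each window held 250 bases before the start of a gene to 50 after. GATTGG, the inverted CCAAT box that NF-Y reads, was found in 4924 of 27025 genes (18.2%). It was found in 12 of the 13 sterol genes with an entry, in 7 of 8 MHC class II genes, in 6 of 13 fatty acid genes, in 1 of 11 endothelial genes in 3 of 20 genes of the CYP2B, CYP2C and CYP3A list and in 7 of 22 p53 targets. Genes with the box were counted whether or not they were measured: Idi1 and H2-Eb1 were not on the array, H2-DMb2 and H2-Ob were not present, and H2-Oa was at -0.17. Msmo1 and Srebf2, sterol genes with the box, were at -0.02 and -0.04. Insig1, at 0.51, was the only sterol gene with an entry and no box, and H2-Ab1 and Cd74 had no entry. The sterol element TCACCCCA was found in 2 of 13 sterol genes and 1.77% of all genes, and the E-box CACGTG in 3 of 13 and 8.09%. CTAGCAAC, from the X box, was found in 2 of 8 MHC class II genes and 1.55% of all genes. A match is a description of the letters and not evidence of binding. To show how the box sits near the start of some of these genes, 150 bases before to 10 after the start are printed for Lss (chr10:76531455-76531614, plus strand), Mvk (chr5:114444119-114444278, plus), Cyp51 (chr5:4104688-4104847, minus), Mvd (chr8:122443413-122443572, minus) and H2-Aa (chr17:34287814-34287973, minus), each 5′ to 3′ on the strand of the gene with the box in capitals, as GATTGG or, on the other strand, CCAATC.
Lss: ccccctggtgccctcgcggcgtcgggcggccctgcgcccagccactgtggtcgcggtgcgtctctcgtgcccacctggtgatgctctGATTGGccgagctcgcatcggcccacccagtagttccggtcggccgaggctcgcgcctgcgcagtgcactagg
Mvk: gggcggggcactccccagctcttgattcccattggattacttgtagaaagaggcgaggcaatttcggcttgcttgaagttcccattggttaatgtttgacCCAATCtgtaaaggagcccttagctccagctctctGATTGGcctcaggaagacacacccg
Cyp51: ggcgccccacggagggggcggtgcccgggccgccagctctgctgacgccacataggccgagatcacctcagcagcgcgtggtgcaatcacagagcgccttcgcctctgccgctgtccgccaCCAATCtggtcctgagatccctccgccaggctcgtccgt
Mvd: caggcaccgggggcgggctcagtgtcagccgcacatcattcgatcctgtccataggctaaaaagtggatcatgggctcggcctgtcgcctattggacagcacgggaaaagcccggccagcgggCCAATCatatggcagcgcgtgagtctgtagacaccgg
H2-Aa: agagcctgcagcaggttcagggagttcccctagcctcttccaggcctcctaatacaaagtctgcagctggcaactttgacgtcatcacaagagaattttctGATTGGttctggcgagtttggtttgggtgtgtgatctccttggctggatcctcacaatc

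The box began 63 bases before the start in Lss, 49 in H2-Aa, 50 and 15 in Mvk, 29 in Cyp51 and 27 in Mvd. The 5 sequences were chosen after the motif had been searched, and all are of genes above 0.

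The sterol list was also compared across the doses. Its medians were 0.06, 0.32 and 0.14 at 25, 50 and 75 mg/kg/day, all against the same control arrays. At 50 mg/kg/day 13 of 20 genes had a higher fold change than at both other doses, beside 4716 of 12997 genes in all. Slide 6, with exposed 12 and 13, held no array at 25 or 75 mg/kg/day, and slides 4 and 5 held such arrays but none at 50. Arrays at 25 mg/kg/day lay at position 2 and those at 75 at position 4. Slide and position are thus partly tied to dose among the exposed arrays. Compared directly between exposed arrays, 8 of 20 genes were higher at 50 than at 25 mg/kg/day at an unadjusted p under 0.05 and 0 lower, beside 4.72% and 3.07% of all genes. The differences were 0.76 for Insig1, 0.58 for Fdft1, 0.53 for Mvd, 0.52 for Lss and 0.51 for Mvk, each with an adjusted limma p of 0.464. Between 75 and 50 mg/kg/day, 4 were lower at 75 and 1 higher, beside 3.27% and 2.84%. limma called 0 probes (0%) in either direct comparison, where the lowest adjusted p was 0.296 for 50 against 25 and 0.306 for 75 against 50, and 2266 and 1890 probes had an unadjusted p under 0.05. With slide as a fixed block limma called 1 probe (0.00366%) for 50 against 25 and 0 (0%) for 75 against 50. It was Soat1, which esterifies cholesterol, at 1.16 higher in that fit (adjusted limma p 0.0401, and 0.464 without the block).

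**Figure D3:**
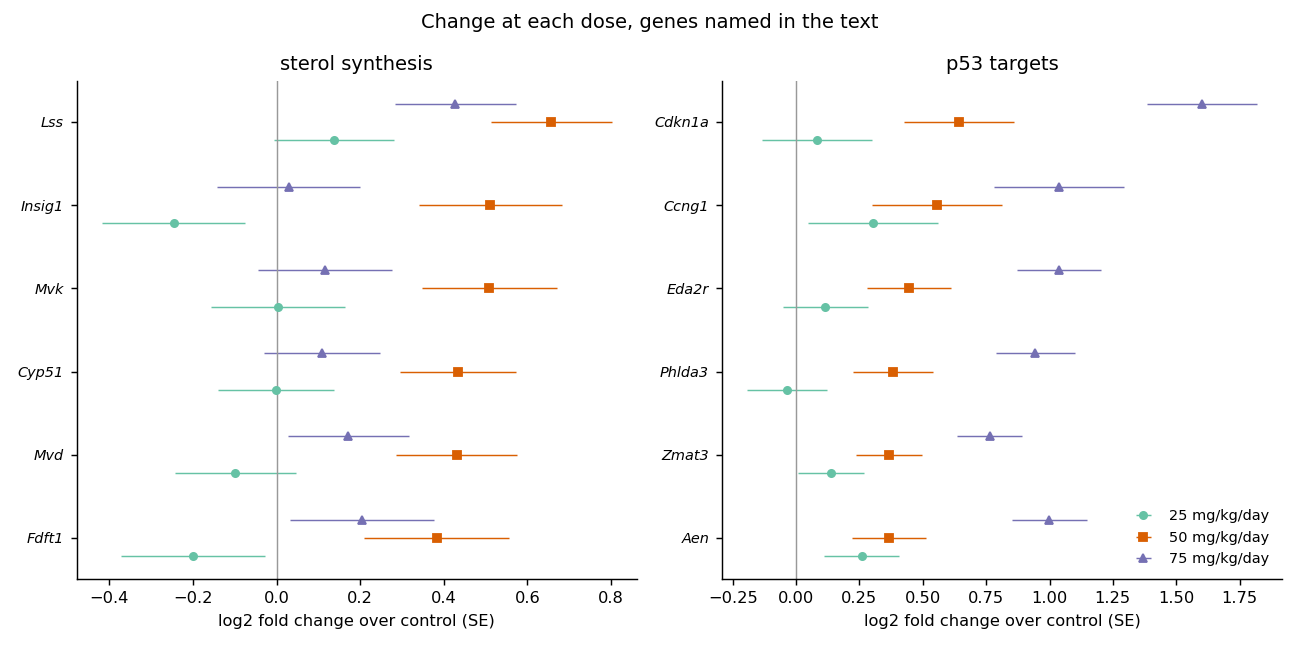
Log2 fold change over control (x axis) with its SE at 25, 50 and 75 mg/kg/day for the sterol synthesis genes and p53 targets named in the text (y axis), picked with their values known. Insig1 (0.51) and Mvk (0.51) have their highest value at 50 mg/kg/day, whereas Cdkn1a (1.6) has it at 75.

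Fatty acid synthesis genes were mostly above 0 at every dose. Of 14 present, 13 were above 0 and 5 were higher at an unadjusted p under 0.05, and the medians were 0.29, 0.36 and 0.42 at 25, 50 and 75 mg/kg/day. Fasn, fatty acid synthase, was at 0.91, 0.76, 1.28, 0.79 and 0.36 in controls and at 1.63, 1.55, 1.38, 1.5 and 1.58 in exposed livers. The exposed arrays lay close together above the controls, with a log2 fold change of 0.70 (SE 0.15, adjusted limma p 0.327) and 0.69 on the second probe. Pnpla3, a lipid droplet protein, had the largest value at 0.85.

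**Figure D4:**
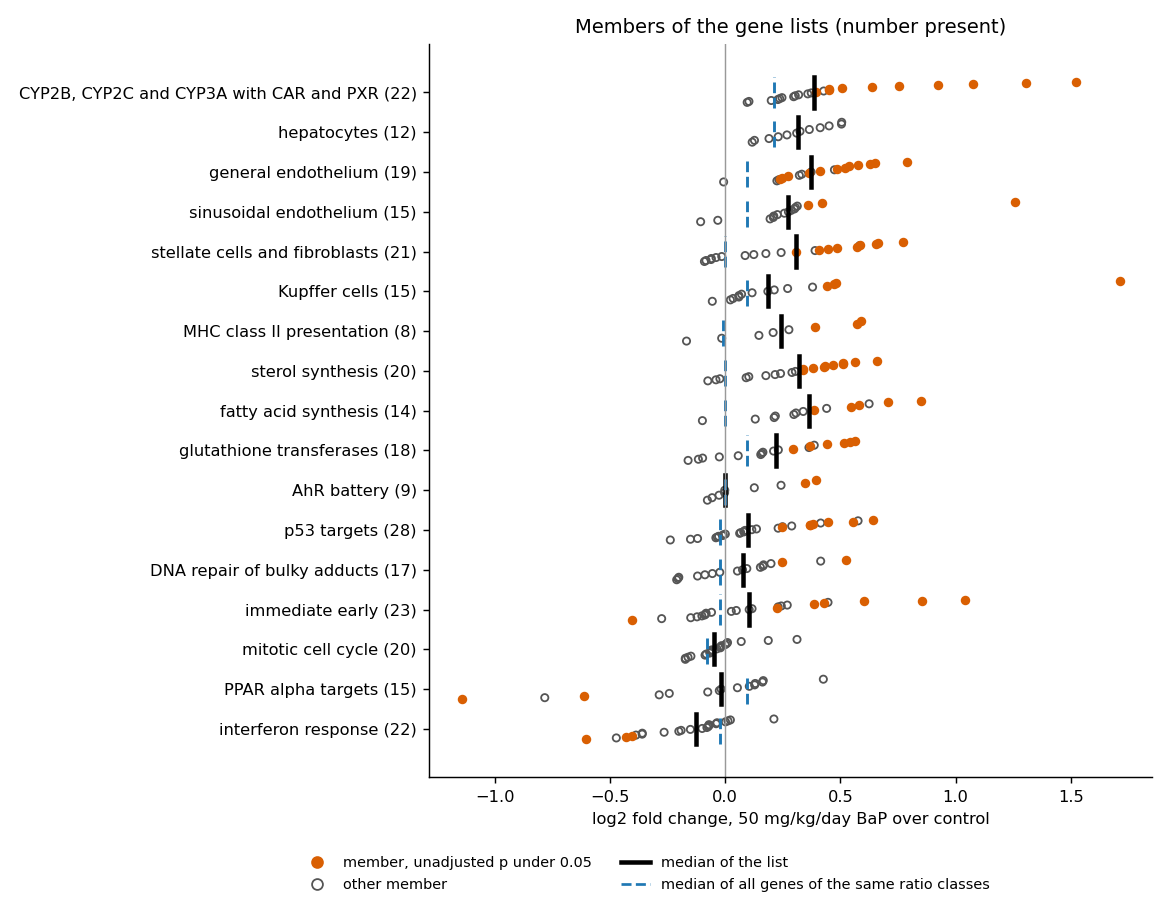
Log2 fold change of 50 mg/kg/day BaP over control for the present members of 17 lists, with orange for an unadjusted p under 0.05, a black bar for the list median and a blue dashed line for the median of genes of matching ratio class. The endothelial (0.37) and sterol (0.32) medians lie well right of their blue lines, while that of the interferon list (-0.13) lies to the left.

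Drug-metabolising genes and hepatocyte markers were both high. All 22 present genes of the CYP2B, CYP2C and CYP3A list with their receptors CAR and PXR were above 0, and 10 were higher at an unadjusted p under 0.05, with a median of 0.38. All 12 hepatocyte markers were above 0 as well, with 0 at an unadjusted p under 0.05 and a median of 0.32. At 25 and 75 mg/kg/day the medians were 0.38 and 0.50 for the CYP list and 0.36 and 0.44 for the hepatocyte markers. All are against the same control arrays. Of 517 genes with a log2 ratio over 4, to which 17 of the 22 belong, 71 (13.7%) were higher at an unadjusted p under 0.05. Only 25% of that class lay below 0.11. Its median was 0.21, which was 0.06 when the liver channel was read alone. On that channel the median of the CYP list was 0.40 and that of the hepatocyte markers 0.10. Within slide 3 the medians were -0.07 and -0.25. That of the hepatocyte markers was 0.16 without control 4 and 0.55 without control 1.

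Cyp2g1, a P450 of the CYP2 family, was at 2.64, 2.54, 3.16, 3.44 and 2.42 in controls and at 3.94, 3.64, 3.81, 4.26 and 3.93 in exposed livers. The groups did not overlap, and the log2 fold change was 1.07 (SE 0.25, adjusted limma p 0.449). Cyp2b10, the classical CAR target, was at 1.6, 1.30, 0.46, 2.21 and 1.00 in controls and at 1.52, 1.59, 3.43, 3.43 and 3.13 in exposed livers. Exposed 13, 14 and 15 were high and exposed 11 and 12 within the control range, for a log2 fold change of 1.31 (SE 0.43, adjusted limma p 0.676). Cyp2b13 was 1.52 higher, and Cyp3a44 1.66 higher on a dim probe and 0.32 on the brightest, all with overlap. These genes have near-identical family members whose transcripts the probes may share.

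**Figure D5:**
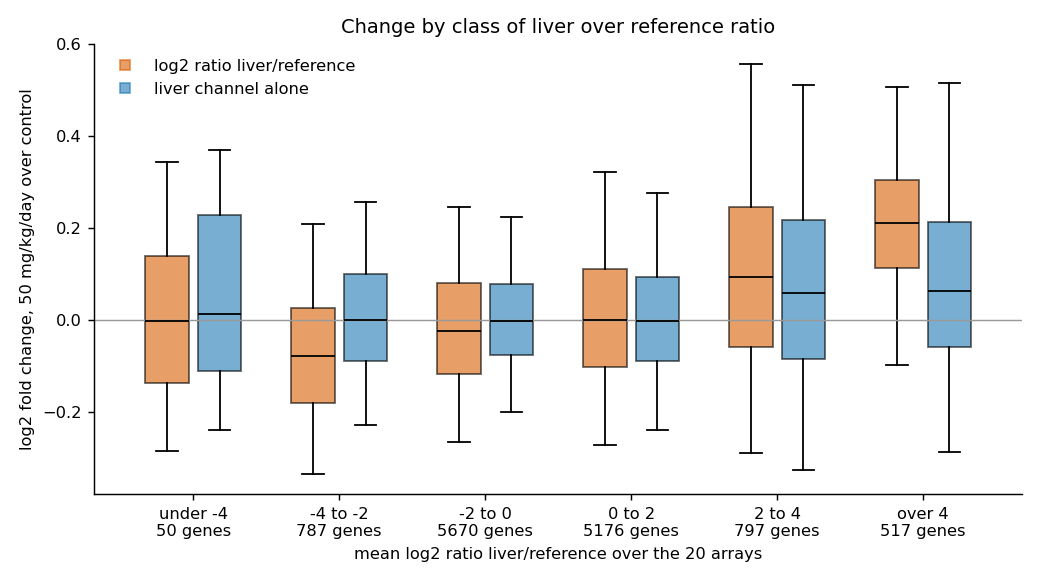
Log2 fold change of 50 mg/kg/day BaP over control for genes grouped by their mean log2 ratio of liver over reference (boxes 25% to 75%, whiskers 5% to 95%), from the ratio and from the liver channel alone. The median of the class over 4 is 0.21 by ratio and 0.06 on the liver channel.

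Of 9 present genes of the AhR battery, 4 were above 0 at 3 days after the last dose, with a median of -0.00. Tiparp, an AhR-induced repressor of the receptor, was 0.39 higher and Nqo1, a quinone reductase, 0.34 higher, each at an unadjusted p under 0.05. Cyp1a1 and Cyp1a2, which were singled out after their values were seen, were at -0.03 and 0.13. Glutathione transferases, which conjugate reactive epoxides, were above 0 in 14 of 18 genes, with 6 higher at an unadjusted p under 0.05. Their median was 0.22 (0.34 without control 1, 0.20 without exposed 14 and -0.01 within slide 3).

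Of 28 present p53 targets, 20 were above 0 and 8 below, with Pmaip1 lowest at -0.24. The median of the list was 0.10 (0.19 without control 3, 0.09 without control 5 and -0.05 within slide 2). At an unadjusted p under 0.05, 7 were higher, against 4.46% of all genes. Cdkn1a, the cell-cycle inhibitor p21, was at -2.25, -1.89, -1.66, -1.67 and -1.55 in controls and at -1.0, -0.67, -1.27, -1.67 and -1.22 in exposed livers. Exposed 14 lay inside the control range and the other 4 above it, for a log2 fold change of 0.64 (SE 0.22, adjusted limma p 0.676). At 25 and 75 mg/kg/day the log2 fold change was 0.08 and 1.6. Directly, 75 exceeded 50 mg/kg/day by 0.96 (adjusted limma p 0.43). Eda2r, a receptor of the TNF receptor family, was well above background on 0 of 5 control and 5 of 5 exposed arrays, with a log2 fold change of 0.44 (adjusted limma p 0.686) that rests on control signals near background. Ccng1, Phlda3, Zmat3 and Aen, all p53 targets, were 0.56, 0.38, 0.37 and 0.37 higher. Of the 28 genes, 10 were higher and 1 lower at 75 than at 50 mg/kg/day at an unadjusted p under 0.05. The shares of all genes were 2.84% and 3.27%.

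Repair and cell-cycle lists had medians of 0.07 and -0.05. Of 17 genes for the repair of bulky adducts, 10 were above 0 and 2 were higher at an unadjusted p under 0.05: Ddb1 (0.52) and Xpc (0.25). Xpc is also among the p53 targets counted above. Xpa was lowest at -0.21. Mitotic cell-cycle genes were above 0 in 5 of 20, with 0 at an unadjusted p under 0.05. Interferon response genes, which defend against viruses, were below 0 in 18 of 22, with a median of -0.13 (-0.05 without control 1 and -0.24 without control 2) and 3 lower at an unadjusted p under 0.05. Rsad2, an antiviral enzyme, was lowest at -0.60.

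Lower transcripts were fewer and more scattered. Pes1, needed for ribosome assembly, was at -1.32, -1.69, -1.46, -1.51 and -1.48 in controls and at -1.86, -2.45, -2.47, -1.97 and -1.80 in exposed livers. Clstn3, a membrane protein of the calsyntenin family, was at 1.59, 2.06, 1.54, 1.63 and 1.89 in controls and at 0.62, 1.32, 1.30, 0.53 and 1.51 in exposed livers. In both genes every exposed array lay below every control. The log2 fold changes were -0.62 (SE 0.18) and -0.68 (SE 0.25), with adjusted limma p of 0.628 and 0.678.

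The largest negative value belonged to Mt2, a metallothionein, of the metal-binding proteins that vary with stress. Mt2 was at -4.05, 0.16, 0.64, -3.52 and 0.06 in controls and at -3.84, -1.71, -4.09, -3.46 and -3.55 in exposed livers. Controls 2, 3 and 5 were high, controls 1 and 4 lay within the exposed range, and the log2 fold change was -1.99 (SE 0.74, adjusted limma p 0.685). Within slides 1, 2, 3 and 6 it was -0.02, -3.52, 0.21 and -3.30. Moxd1 was at -1.80, Mt1 at -1.29, Nnmt at -1.28, Fgf21 at -1.14 and Pik3c2g at -1.07, and all overlapped too.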

How the data were processed

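Liver RNA of 5 control and 5 exposed mice was read on 2-colour Agilent arrays, and 20 arrays of 4 dose groups entered the model. Per the file headers, the authors extracted the signals with Feature Extraction 10.1.1.1. The deposited intensity values are median spot signals of liver (Cy5) and reference (Cy3). The deposited log2 ratios of the series table, which the authors normalised by LOWESS, were used as an alternative. Background was corrected with normexp (offset 50), ratios were normalised by loess within arrays with control and outlier spots at weight 0, and spots of a probe were averaged. The presence limit of an array was set from its 153 negative control spots as their mean with 5% trimmed, raised by 3 SDs of the trimmed values. A probe counted as present with a Cy5 signal past this limit on 4 or more of the 5 arrays in any group, which held for 27346 of 41174 probes. Symbols came from RefSeq accessions, and the brightest present probe stood for a gene. Tests were two-sided (limma 3.58.1 in R 4.3.3) with Benjamini-Hochberg adjustment within a contrast. The study's own MAANOVA test was not run here. No column of per-sample values was left unused (0 columns).

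Named genes were the 7 genes the study lists at this dose, up to 12 higher and 12 lower genes of smallest p with fold over 1.5 and no overlap between groups, the 6 highest and 6 lowest fold changes, genes called under another processing and, of each of 38 gene lists, the extreme members and those with an unadjusted p under 0.05. The 7 were chosen by the study on these same arrays and are no independent evidence. The members and lists were chosen with earlier results of these data known. Each array was 1 animal, so the spread behind the p-values joins differences between animals with those between arrays and slides. With slide as a random block, the correlation within slides was 0.243. The number of arrays limits the precision. In simulated data for this comparison (27064 probes), the test recovered 15 of 66 changes of 0.6 on the log2 scale, 60 of 67 of 1 and 67 of 67 of 2, with 5 wrong calls. The simulated noise was independent between probes and arrays and held no slide effect. These rates therefore need not hold for the real arrays. Other background corrections, normalisations, filters, samples, slide blocks and adjustments, and leaving out each array, were run as alternatives. Figures were drawn with matplotlib 3.10.9.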

Additional observations from a re-analysis of the deposited data

Results flagged for a closer look

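A value was singled out where the highest or lowest of 5 arrays stood apart from the rest of its group by more than Dixon's critical value of 0.71 for the gap over the range. This held for 7 of 60 group values of the named transcripts (11.7%), where chance gives about 1 in 20. In the controls, replicate 5 was lowest for the second probe of Fasn, at 1.75 beside 2.32 to 2.53 in the others, and for the second probe of Lss, at 0.84 beside 1.29 to 1.42. Control 2 was lowest for Pik3c2g, at 3.42 beside 4.38 to 4.75. Among exposed livers, replicate 12 was highest for the brightest probe of H2-Ab1, at 3.05 beside 2.59 to 2.72, for Mt1, at -1.05 beside -3.03 to -2.62, and for Mt2, at -1.71 beside -4.09 to -3.46. Exposed 13 was lowest for Ltc4s, at 0.44 beside 1.26 to 1.57. All are log2 ratios of liver over reference.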

How the results depend on the processing

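The count of transcripts called lower was 0 under every alternative run, and the count called higher was 0 except in the following. It was 4 with the scanner software's processed signals (Eda2r, Ltc4s, Cyp3a44 and 1 unnamed probe), 3 with slide as a fixed block, 6 with slide as a random block (H2-Ab1, Marco, Adamtsl2, Mmrn2, Ighm and Ushbp1) and 4 with adjustment over 3 contrasts together. With slide as a block in a model of the 10 arrays, chosen after seeing the data, it was 1 (Marco), and with centring by ratio class, likewise added, 0. Leaving out 1 array at a time gave 0 to 1, the 1 being Marco without replicate 19 of the 75 mg/kg group. The 30 named transcripts kept their direction under all alternatives over the 10 arrays, while single-slide differences turned some, as given for Mt2. Many of them were picked for large or non-overlapping differences on these same arrays. Several alternatives, such as the adjustment or leaving out arrays of other doses, barely touch the fold change. The kept direction was thus largely fixed in advance. List medians ranged over 0.22 to 0.57 for general endothelium, 0.01 to 0.65 for sterol synthesis and -0.25 to 0.87 for hepatocytes. No paired analysis was possible because the labels number samples 1 to 20 with no number shared between groups; slide was blocked instead. Dim probes (well above background on few control arrays) limit Ltc4s and Eda2r.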

Other observations

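Other transcript groups are described here, and some of their genes were counted above. Btg2, an immediate early gene, is also in the p53 list. Cyp2b13 is in both the CYP list and the list of genes higher in female liver, where it has the largest value. Immediate early genes, which answer growth signals within minutes, were above 0 in 14 of 23, with 6 higher and 1 lower at an unadjusted p under 0.05. Egr1 was 1.04 higher, Myc 0.85 and Junb 0.60, and only Junb among these had groups that did not overlap. Circadian clock genes were above 0 in 14 of 19, with Dbp at 1.14 (SE 0.64, adjusted limma p 0.781) and Nfil3 at -0.71, both with overlap. PPAR alpha targets, which drive fatty acid oxidation, were above 0 in 7 of 15 and 2 were lower at an unadjusted p under 0.05, Fgf21 among them.

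Erythroid genes were above 0 in 8 of 9, led by Nfe2, a transcription factor of megakaryocytes and red cells, at 1.15. Genes of the growth hormone axis were above 0 in 10 of 14. Cish, a feedback inhibitor of cytokine signalling, had the largest value at 1.28 (SE 0.86, adjusted limma p 0.810), with overlap. Genes known to be higher in female liver were above 0 in 12 of 14 and those higher in male liver in 13 of 15, with medians of 0.36 and 0.25. On the liver channel alone these medians were 0.31 and 0.03, and 8 of the 14 and 11 of the 15 genes had a log2 ratio over 4. The median of the male list was 0.11 without control 2 and 0.39 without control 1.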
